A study of Sus scrofa with 24 samples.

Results

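The 10 genes described here are genes of neurons and glia, followed through the development of pig muscle. They are NEFL and MAP2 of the neuronal cytoskeleton, RTN1 of the neuronal endoplasmic reticulum, SNAP25 and SYN1 of the nerve terminal, GAD1 and GAD2 of transmitter synthesis, the transcription factors LHX1 and OLIG1, and GFAP, a filament protein of glia. Their 16 probe sets were found by gene symbol in the array annotation. Where a gene had several, it was represented by the one brightest on average over the arrays. The 10 genes are among 6765 that the annotation names through probe sets with exactly 1 symbol.

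The RNA came from longissimus dorsi, the long back muscle, of German Landrace (DL) and Pietrain (Pi) pigs. Fetal muscle was taken at 35, 63 and 91 days post conception (dpc) and compared with that of adults, which gives 8 groups of breed and stage. Each group holds 3 pools of RNA, lettered a to c, and each pool has 1 of the 24 Affymetrix porcine arrays. The groups differ in breed and stage, and the labels name no treatment or altered allele. How many animals made up a pool, of which sex, and how old the adults were are points not given in the sources used here, and nothing states that pools come from separate animals. The p-values therefore refer to the spread of these pools, which may be technical. A free-text label calls the fetal pools peripubertal, whereas their titles and stage labels give the days above. The letter K stands in the titles of the 35 dpc pools alone and is not explained, so whether those pools were sampled differently cannot be told.

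Neurons send signals along axons stiffened by neurofilaments and release transmitter from vesicles that fuse with the terminal membrane, while glia ensheathe and support them. A trunk muscle is reached by motor and sensory axons with their Schwann cells. The cell bodies of those neurons, which hold most of the neuronal mRNA, lie outside the muscle in the spinal cord and its ganglia, and astrocytes and oligodendrocytes are cells of the central nervous system.

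All values are log2 intensities, 1 per probe set and array. The background ceiling of an array is the highest of 23 control probe sets with no spiked target, and it lay between 2.31 and 2.69. Between 21.32% and 32.19% of the probe sets of an array were at or below it. All 24 columns hold the same values after sorting, so a change is a shift against the rest of the array and not in the amount of RNA. The arrays measured bulk RNA, in which fewer cells of a type and less RNA per cell cannot be told apart. The labelled tissue was checked by its muscle genes. DES, the muscle intermediate filament, averaged 10.54 at 35 dpc and 13.61 at 63 dpc. MYH7, the slow myosin heavy chain, averaged 12.18 and 14.36 at these stages, and MYOD1, a regulator of the muscle lineage, 8.41 and 9.81. Muscle genes were thus far above the ceiling at 35 dpc, the stage at which the neuronal genes were also high.

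The comparison of 63 with 35 dpc, averaged over both breeds, held nearly all of the change. Of the 10 genes, 9 were lower at 63 dpc and 0 were higher, where 22% of all 23999 tested probe sets were lower. The median log2 change of the 10 genes was -5.02, and that of all probe sets 0.00. The gene that did not pass was SYN1. The pools of the 2 stages did not overlap for 8 of the 10 genes (33.4% of all probe sets, in either direction), the exceptions being SYN1 and GFAP. Within DL 9 genes were lower (15.7% of all probe sets) and within Pi 8 (18.4%), GFAP being the one that passed in DL and not in Pi, a contrast that was lost with arrays scaled to the hybridisation controls.

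**Figure D1:**
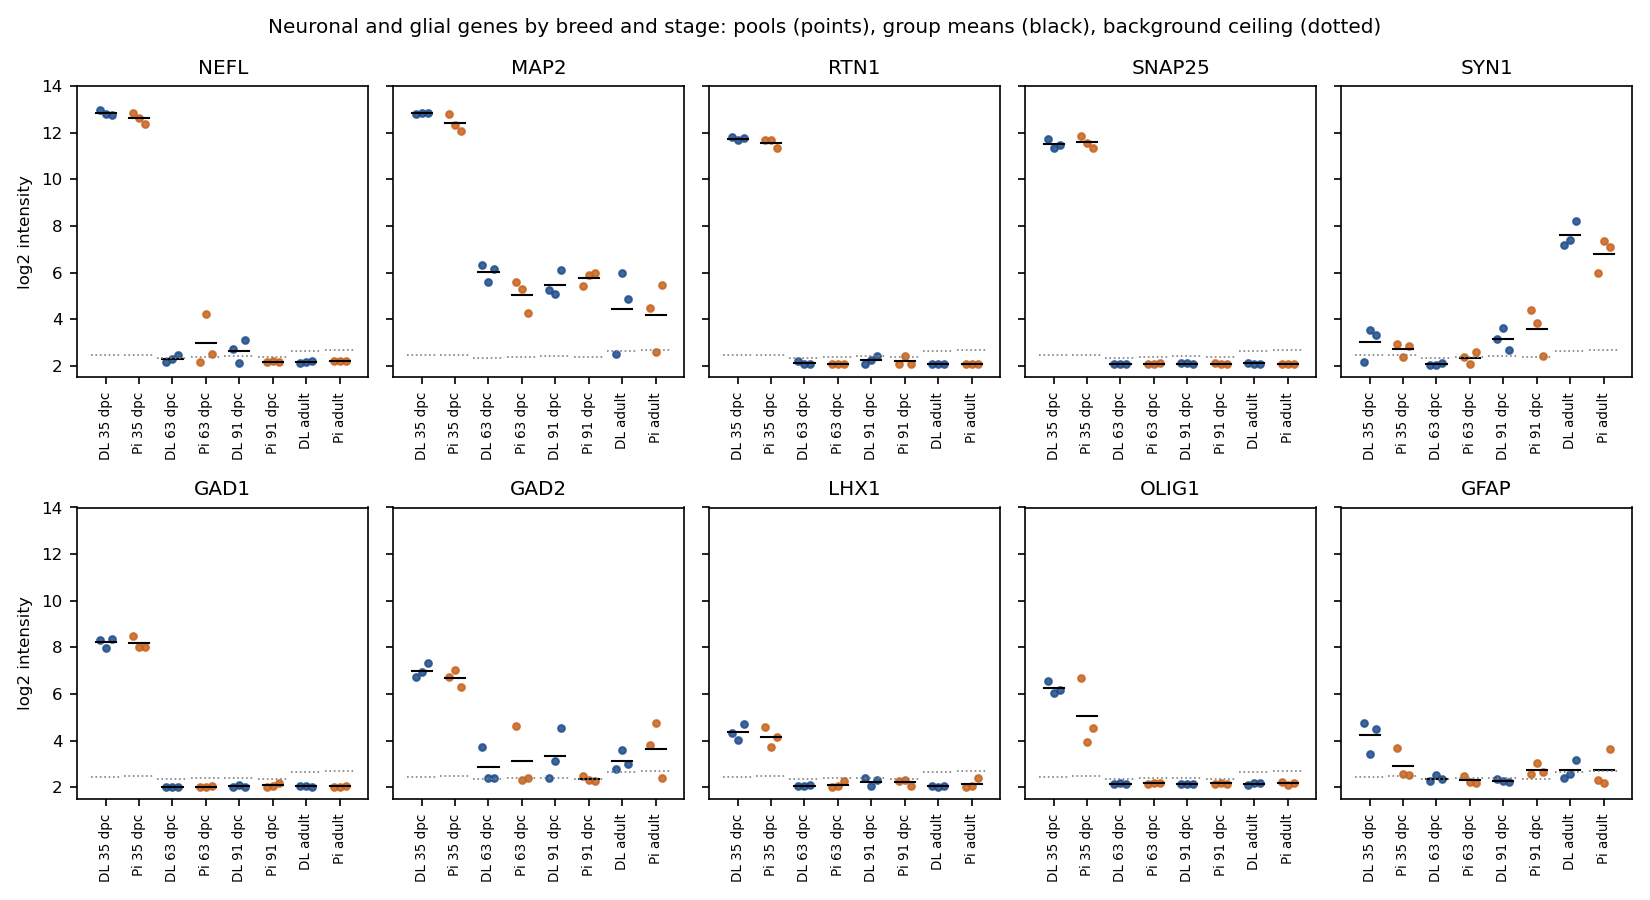
Log2 intensity of each of the 10 genes in the 8 groups, DL in blue and Pi in orange, with 1 point per pool, a black bar for the group mean and a dotted line for the highest background ceiling of the group's arrays. At 35 dpc NEFL, MAP2, RTN1 and SNAP25 stand between 11.34 and 12.95 in all 6 pools, most genes lie near the ceiling from 63 dpc on, MAP2 stays above it, and SYN1 is highest in adults.

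Among the cytoskeletal genes, NEFL, the light subunit of neurofilaments, stood at 12.95, 12.79 and 12.75 in the DL pools a, b and c at 35 dpc and at 12.83, 12.62 and 12.37 in the Pi pools. At 63 dpc the DL pools stood at 2.18, 2.29 and 2.46 and the Pi pools at 2.18, 4.22 and 2.49. All 6 pools were high at 35 dpc, and those of 63 dpc lay at or near the ceiling apart from Pi pool b. The stage mean went from 12.72 ± 0.20 (SD, n = 6) to 2.64 ± 0.79, a log2 change of -10.08 ± 0.25 (SE of the limma fit, adjusted p = 2.43e-16). At 91 dpc the DL pools stood at 2.74, 2.13 and 3.10 and the Pi pools at 2.18, 2.19 and 2.17, and the adult pools lay between 2.13 and 2.22. Over the 18 later arrays NEFL was above the ceiling on 5, none of them adult.

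MAP2, a protein that binds microtubules in dendrites, stood at 12.78, 12.85 and 12.86 in DL and at 12.82, 12.34 and 12.06 in Pi at 35 dpc. At 63 dpc the DL pools stood at 6.31, 5.60 and 6.16 and the Pi pools at 5.58, 5.31 and 4.26. MAP2 fell by 7.08 ± 0.50 on the log2 scale (limma, adjusted p = 1.36e-09) but, unlike the other 8 genes that fell, kept every fetal pool above the ceiling. It was above it on 17 of the 18 later arrays.

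RTN1, a reticulon of neuronal and neuroendocrine cells, stood at 11.81, 11.68 and 11.75 in DL and at 11.70, 11.67 and 11.34 in Pi at 35 dpc. All 6 pools of 63 dpc lay between 2.06 and 2.19, at or below the ceiling. The fitted log2 change was -9.57 ± 0.07 (limma, adjusted p = 1.45e-23), and against the ceiling RTN1 was at least 641.3-fold lower. Of the 18 later arrays 2 were above the ceiling, both at 91 dpc, with 2.41 in DL pool c and 2.42 in Pi pool b. No later pool of either breed was higher than that.

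SNAP25 is the presynaptic membrane protein of the complex that fuses vesicles with the terminal. At 35 dpc it stood at 11.73, 11.34 and 11.49 in DL and at 11.84, 11.54 and 11.36 in Pi. All 18 later arrays lay between 2.07 and 2.12, none above the ceiling. The fitted change to 63 dpc was -9.47 ± 0.07 (limma, adjusted p = 8.28e-24), at least 594.7-fold against the ceiling. The breeds overlapped at 35 dpc.

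SYN1, which coats synaptic vesicles, differed from the other genes. At 35 dpc it stood at 2.15, 3.54 and 3.34 in DL and at 2.95, 2.38 and 2.84 in Pi, with 4 of 6 pools above the ceiling. At 63 dpc it stood at 2.03, 2.04 and 2.11 in DL and at 2.39, 2.07 and 2.59 in Pi. The log2 change of -0.66 ± 0.33 did not pass (limma, adjusted p = 0.121), with a 95% interval from -1.36 to 0.03. The SYN1 call at this step depended on the fit, as -0.88 without DL pool a of 35 dpc had an adjusted p of 0.0382.

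GAD1 and GAD2 encode the enzymes that make the inhibitory transmitter GABA from glutamate. GAD1 stood at 8.32, 7.99 and 8.34 in DL and at 8.51, 8.03 and 8.01 in Pi at 35 dpc, and between 2.01 and 2.17 on all 18 later arrays, none above the ceiling. It was at least 58.35-fold lower at 63 dpc (fitted log2 change -6.18 ± 0.08, limma adjusted p = 1.05e-20). The breeds overlapped at 35 dpc, and no later pool came near them.

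GAD2 stood at 6.75, 6.94 and 7.31 in DL and at 6.75, 7.03 and 6.29 in Pi at 35 dpc. At 63 dpc it stood at 3.75, 2.42 and 2.40 in DL and at 4.65, 2.30 and 2.42 in Pi. GAD2 fell by 3.85 ± 0.45 on the log2 scale (limma, adjusted p = 1.23e-06), and its later pools were scattered. At 91 dpc the DL pools stood at 2.41, 3.12 and 4.54 and the Pi pools at 2.47, 2.31 and 2.27. In adults the DL pools stood at 2.78, 3.58 and 3.02 and the Pi pools at 3.83, 4.77 and 2.39. No later stage held its pools together, and 14 of the 18 later arrays were above the ceiling, against 0 for GAD1. A further GAD2 probe set lay between 2.05 and 2.22 on all 24 arrays, never above the ceiling, so the GAD2 values rest on 1 of its 2 probe sets.

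LHX1, a LIM homeodomain factor of developing spinal interneurons and some motor neurons, was low but above the ceiling in all 6 pools of 35 dpc, at 4.35, 4.01 and 4.70 in DL and at 4.58, 3.72 and 4.16 in Pi. From 63 dpc on, it lay at 2.40 or lower, above the ceiling on none of the 18 arrays. LHX1 was at least 3.785-fold lower at 63 dpc (fitted log2 change -2.17 ± 0.13, limma adjusted p = 1.86e-10). No pool of 35 dpc reached down into the later range.

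OLIG1, a basic helix-loop-helix factor of the oligodendrocyte lineage, stood at 6.56, 6.06 and 6.17 in DL and at 6.68, 3.93 and 4.56 in Pi at 35 dpc. Every later pool lay between 2.11 and 2.21, at or below the ceiling. OLIG1 was at least 10.04-fold lower at 63 dpc (fitted log2 change -3.50 ± 0.29, limma adjusted p = 1.24e-08). Its Pi pools at 35 dpc were spread far wider than its DL pools, with pool a above all DL pools and pools b and c below them. The change was -4.11 ± 0.41 within DL and -2.89 ± 0.41 within Pi.

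GFAP, the filament protein of astrocytes that some Schwann cells also make, was at most modestly above the ceiling at 35 dpc. It stood at 4.77, 3.44 and 4.48 in DL and at 3.67, 2.57 and 2.53 in Pi. At 63 dpc the pools stood at 2.25, 2.53 and 2.35 in DL and at 2.47, 2.22 and 2.20 in Pi, so the 2 stages overlapped over both breeds though not within either. The log2 change was -1.24 ± 0.27 (limma, adjusted p = 0.000847), made of -1.85 ± 0.38 within DL (adjusted p = 0.000848) and -0.63 ± 0.38 within Pi (adjusted p = 0.234). The change within Pi was -0.25 without Pi pool a of 35 dpc, and -1.75 (adjusted p = 0.000196) with arrays scaled to the hybridisation controls, where it passed. The difference between the breeds in this change was 1.23 ± 0.54 and did not pass (adjusted p = 0.287).

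After 63 dpc GFAP stood at 2.36, 2.26 and 2.22 in DL and at 2.55, 3.04 and 2.64 in Pi at 91 dpc. In adults it stood at 2.42, 2.58 and 3.18 in DL and at 2.33, 2.20 and 3.66 in Pi. Over both breeds 8 of the 18 later arrays were above the ceiling, and neither later step passed (0.18 ± 0.27 and 0.21 ± 0.27).

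The fall of GFAP to 63 dpc rests on 1 of 4 probe sets. The log2 changes of the other 3 were 0.13, 0.06 and 0.03, none of which passed, and the mean of all 4 changed by -0.25 (limma, adjusted p = 0.374). These 3 probe sets were near the ceiling at 35 dpc. One of them was bright in later pools, at 4.30 and 3.77 in Pi pools a and b of 91 dpc and at 5.76 in adult Pi pool c. For NEFL and MAP2, by contrast, both probe sets of each gene passed. The further NEFL probe set changed by -5.71 ± 0.17 (adjusted p = 7.31e-15), and the further MAP2 probe set by -6.79 ± 0.47 (adjusted p = 1.18e-09).

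**Figure D2:**
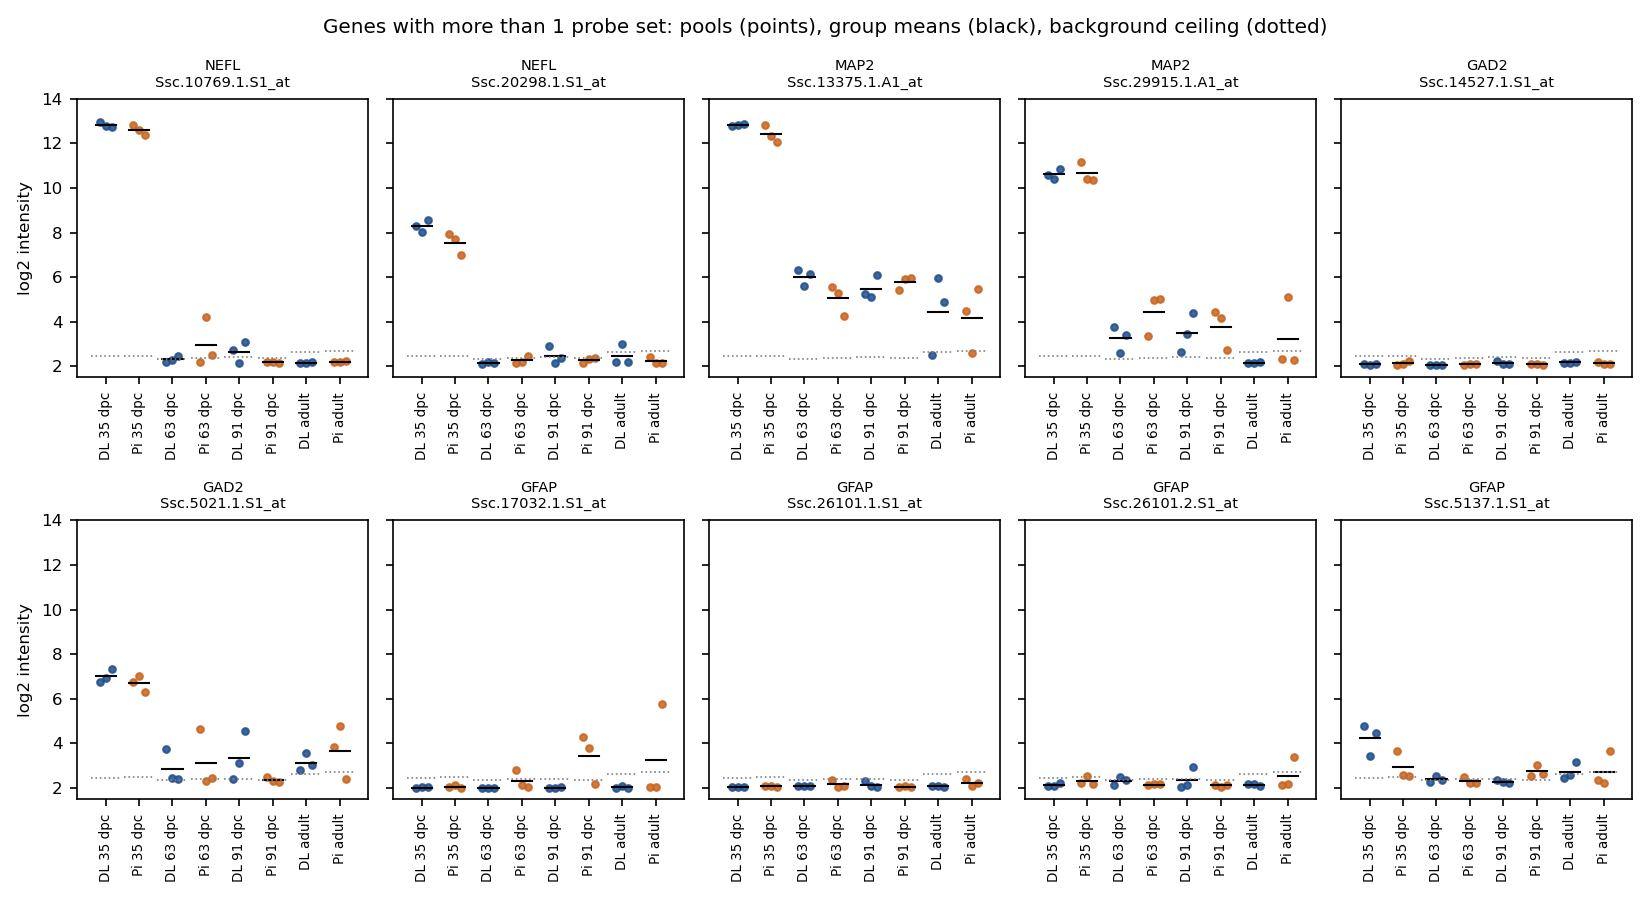
Log2 intensity of all probe sets of NEFL, MAP2, GAD2 and GFAP, the genes with more than 1, in the 8 groups (blue DL, orange Pi, 1 point per pool, black bar for the group mean, dotted line for the background ceiling). Both NEFL and both MAP2 probe sets are high at 35 dpc, whereas only 1 of 2 for GAD2 and 1 of 4 for GFAP stand out there.

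Between 63 and 91 dpc, 1 of the 10 genes was higher (8.88% of all probe sets) and 0 were lower, and the median change was 0.06. The gene was SYN1, at 3.13, 3.61 and 2.68 in DL and at 4.41, 3.84 and 2.43 in Pi at 91 dpc. All 6 pools were above the ceiling, against 2 of 6 at 63 dpc, and the pools of the 2 stages overlapped. The log2 change was 1.14 ± 0.33 (limma, adjusted p = 0.02), and the call was lost without DL pool b (1.03, adjusted p = 0.0541), Pi pool a (0.93, adjusted p = 0.0589) or Pi pool b (1.07, adjusted p = 0.0503) of 91 dpc. The log2 changes of the other 9 genes lay between -0.22 for NEFL and 0.18 for GFAP.

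Between 91 dpc and adults, 1 gene was higher (30.8% of all probe sets) and 1 was lower (26.6%). SYN1 stood at 7.19, 7.38 and 8.22 in adult DL and at 5.99, 7.34 and 7.08 in adult Pi, above every pool of every fetal stage (34.5% of all probe sets had no overlap between adults and 91 dpc). It rose 14.43-fold, a log2 change of 3.85 ± 0.33 (limma, adjusted p = 1.19e-08). Ordered by stage mean, SYN1 was highest in adults (7.20 ± 0.72, SD, n = 6), then at 91 dpc (3.35 ± 0.75), 35 dpc (2.87 ± 0.54) and 63 dpc (2.21 ± 0.23). The pools of neighbouring fetal stages in this order overlapped.

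MAP2 was lower in adults, at 2.52, 5.96 and 4.88 in DL and at 4.50, 2.58 and 5.47 in Pi, after 5.24, 5.09 and 6.09 and 5.42, 5.90 and 5.97 at 91 dpc. In each breed 1 adult pool lay near the ceiling while another stayed in the range of the fetal pools from 63 dpc on. The log2 change was -1.30 ± 0.50 (limma, adjusted p = 0.033), the further MAP2 probe set changed by -0.93 ± 0.47 (adjusted p = 0.103), and the call was lost when any of 5 pools was left out, DL pool c, Pi pool b or Pi pool c of 91 dpc, adult DL pool a or adult Pi pool b (-0.82 to -1.27, adjusted p = 0.0586 to 0.101). In order of stage mean MAP2 was highest at 35 dpc (12.62 ± 0.34), then 91 dpc (5.62 ± 0.42), 63 dpc (5.54 ± 0.73) and adults (4.32 ± 1.46), and the last 3 overlapped.

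**Figure D3:**
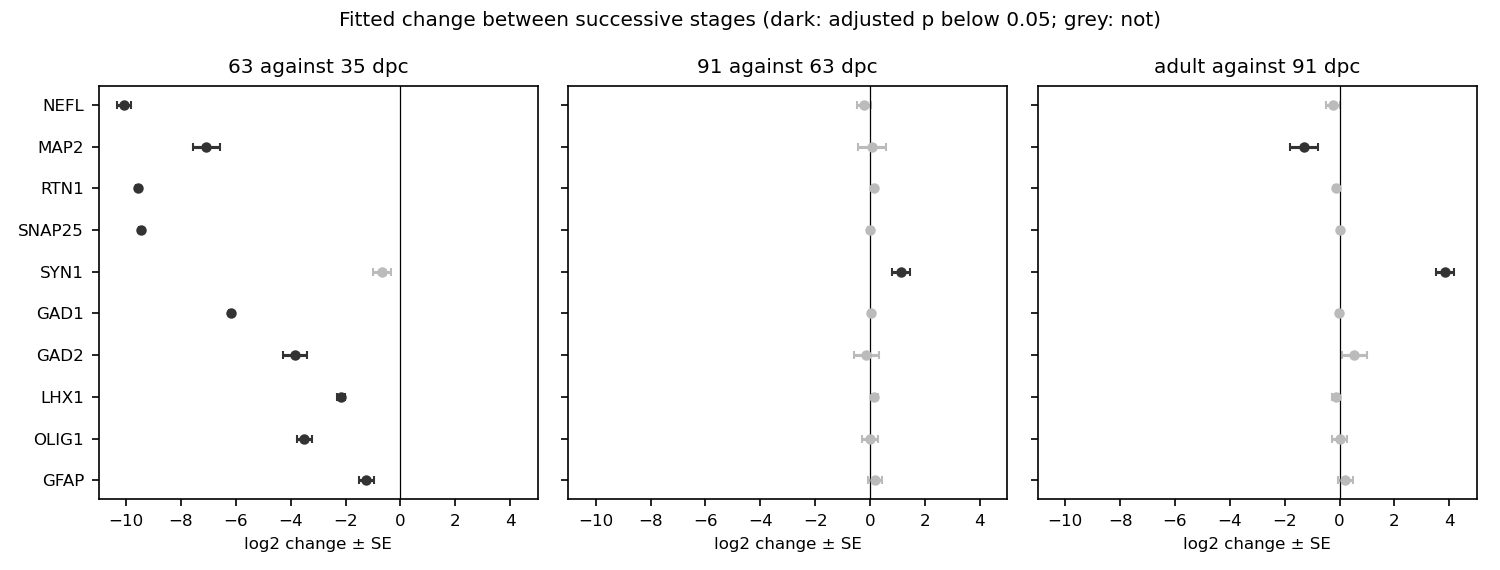
Fitted log2 change of the 10 genes between successive stages, averaged over both breeds, with the standard error as a bar (dark, adjusted p below 0.05; grey, not). The first step carries 9 falls, down to -10.08 for NEFL, and the later steps carry the rises of SYN1 (1.14 and 3.85) and the fall of MAP2 (-1.30).

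The breeds were compared at each stage. None of the 10 genes passed between Pi and DL at 35 dpc (0 of 10, against 4.03% of all probe sets), 63 dpc (1.37%), 91 dpc (2.72%), in adults (6.33%) or over all stages (6.29%) in the limma fit. At an unadjusted p below 0.05 there were 2 genes at 35 dpc, OLIG1 and GFAP, and 0 in each of the other 4 comparisons. The interactions of breed with the 3 steps likewise gave 0 genes (3.3%, 0.0917% and 2.66% of all probe sets), with 1, 1 and 0 at an unadjusted p below 0.05. The percentages refer to the adjusted threshold. The share of all probe sets at the unadjusted threshold is not given here, so no result is read from the unadjusted counts.

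At 35 dpc the log2 differences of Pi minus DL lay between -0.43 and 0.06 for 8 genes. OLIG1 differed by -1.21 ± 0.41 (limma, adjusted p = 0.13, 95% interval from -2.07) and GFAP by -1.31 ± 0.38 (adjusted p = 0.0648, 95% interval from -2.11). Both ends of each interval were negative, but the intervals are not adjusted for the number of probe sets tested. For GFAP the lowest DL pool, 3.44, lay below the highest Pi pool, 3.67, and for OLIG1 the highest pool of all was Pi pool a, 6.68. Without that pool both genes passed, OLIG1 with -2.02 (adjusted p = 4.51e-07) and GFAP with -1.68 (adjusted p = 0.0207), and without DL pool b GFAP passed with -1.71 (adjusted p = 0.0225). With arrays weighted by their quality both also passed, at -1.38 and -1.37. The further NEFL probe set was lower in all Pi pools (7.96, 7.71 and 6.99) than in all DL pools (8.28, 8.04 and 8.56), a difference of -0.74 ± 0.25 that did not pass (adjusted p = 0.122), whereas the brightest NEFL probe set differed by -0.22 ± 0.35.

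Individual pools moved across several of the genes. Pi pool c of 35 dpc was the lowest of the 6 pools for 5 of the 10 genes, and the median over the genes of its difference from the DL mean was -0.43, against -0.35 in Pi pool b and -0.01 in Pi pool a. Measures of the arrays also separated the breeds at this stage. The difference between 3' and 5' GAPDH control probe sets was 0.52 to 0.80 in DL and 1.08 to 1.21 in Pi, and the mean of the 27 hybridisation controls 10.40 to 10.64 and 9.94 to 10.14. DES was 10.81 to 10.85 in DL and 10.09 to 10.43 in Pi. Of 23 muscle fibre genes, 9 were lower in Pi (39.1%, against 3.58% of all genes) and 0 were higher (1.94% of all genes). The part of these measures in the breed differences was not tested. Scaling each array to its hybridisation controls moved the median over all probe sets by 0.51 towards Pi at 35 dpc, and that of the 10 genes turned from -0.25 to 0.26.

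**Figure D4:**
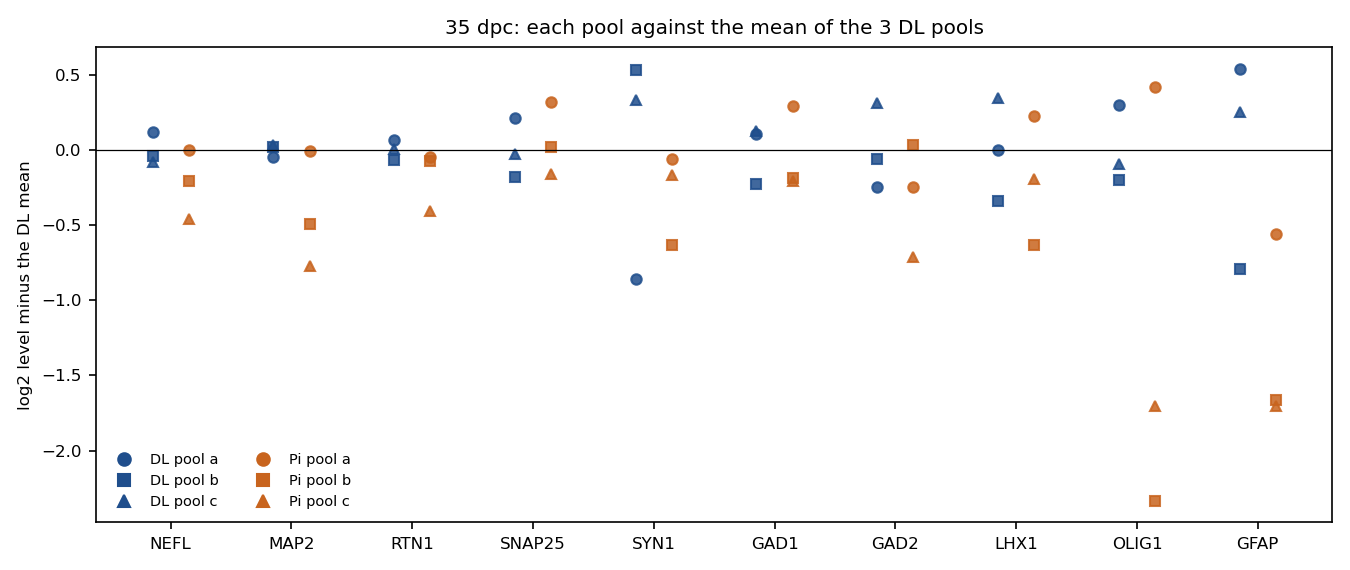
Difference of each 35 dpc pool from the mean of the 3 DL pools, in log2 units, for the 10 genes (blue DL, orange Pi; circle pool a, square pool b, triangle pool c). The points farthest below the DL mean are Pi pools b and c for OLIG1 (3.93 and 4.56) and GFAP (2.57 and 2.53).

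Other genes of the same kinds were counted from 4 neuronal lists and a glial list, with the 10 genes left out. Of 142 further neuronal genes 34 had a probe set, and 21 of them were lower at 63 than at 35 dpc, 2 were higher and 11 did not pass, with a median of -0.91. That is 61.8% lower, against 24.1% of all 6765 genes. The 21 include small changes, such as SYN2 at -0.38, OLIG2 at -0.33 and CHRM2 at -0.12. Of the 34, 20 were above the ceiling in all 6 pools of 35 dpc. Only 21.32% to 32.19% of all probe sets of an array were at or below it, so the count is not read as particular to these genes. The lists, like the 10 genes, were chosen with results of these arrays known.

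Of 6 genes of the cytoskeleton and axon growth, 5 fell and 1 rose (median -6.37). STMN2, which regulates microtubules in growth cones, changed by -9.47 ± 0.15, UCHL1, an abundant neuronal ubiquitin hydrolase, by -7.30 ± 0.31, GAP43, a growth cone protein, by -6.45 ± 0.32, and the axonal motor KIF5C by -6.30 ± 0.27 (limma, adjusted p = 1.22e-11 or below). MAP1B, a microtubule-associated protein, rose by 2.82 ± 0.43, opposite to MAP2.

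Of 11 genes of synapses and secretory vesicles, 8 fell, 1 rose and 2 did not pass (median -4.66). SCG2, a granin of secretory granules, was at least 124.3-fold lower, and SYT1, the calcium sensor of vesicle release, at least 72.37-fold lower. SCG3 changed by -5.25 ± 0.09 and SCG5 by -5.04 ± 0.16, both proteins of secretory granules. The gene that rose was VAMP2, the vesicle partner of SNAP25, by 0.41 ± 0.11. VAMP2 thus moved opposite to SNAP25 at this step in the deposited values averaged over both breeds. Within DL 0 genes of this list were called higher. Scaling to the hybridisation controls moved the median over all probe sets by -0.81 at this step, more than the rise of VAMP2, so its direction depends on the scaling.

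Of 9 genes of transmitter synthesis, transport and reception, 4 passed as lower, 0 as higher and 5 did not pass (median -0.01). The 4 include CHRM2, which changed by only -0.12 ± 0.04. In DL 5 of the 9 genes, and in Pi 4, lay at or below the ceiling in all pools of 35 dpc. The neuropeptide gene NPY was at least 50.37-fold lower, and SST, for somatostatin, changed by -4.50 ± 0.58. GLRB, a glycine receptor subunit, changed by -0.41 ± 0.16 (limma, adjusted p = 0.0416), with 2 of 6 pools above the ceiling at 35 dpc and 0 at 63 dpc. Its call was lost when only the arrays compared were fitted (adjusted p = 0.127) and without any 1 of 8 pools: DL pool a or Pi pool b or c of 35 dpc, any DL pool or Pi pool b or c of 63 dpc. The value without DL pool a of 35 dpc was -0.22 (adjusted p = 0.08). DDC, the enzyme of dopamine and serotonin synthesis, changed by 1.38 ± 0.73 and did not pass (limma, adjusted p = 0.145). The count of lower genes was 2 without Pi pool c of 35 dpc or Pi pool b of 63 dpc.

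Of 8 neural transcription factors and RNA-binding proteins, 4 fell, 0 rose and 4 did not pass (median -0.19). ELAVL4, a neuronal RNA-binding protein, was at least 144.7-fold lower, CELF4, a splicing and translation regulator, at least 61.22-fold, and POU3F1, a POU factor of neural and Schwann cells, at least 2.404-fold. OLIG2, the close relative of OLIG1, changed by -0.33 ± 0.10 from a mean of 2.53, so it was near the ceiling at both stages.

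Of 16 measured glial genes other than GFAP, 8 fell, 2 rose and 6 did not pass (median -0.17), and GAP43 is on this list too. FABP7, a fatty acid binding protein of radial glia and glial precursors, went from 13.57 to 2.39. SLC1A2, the astrocyte glutamate transporter, changed by -4.75 ± 0.23, and CLDN11, a claudin of oligodendrocyte myelin, by -4.70 ± 0.37. S100A1, a calcium-binding protein, rose by 2.56 ± 0.28 and MBP, a protein of myelin, by 1.46 ± 0.51. The 6 that did not pass were SOX10 (-0.12), CNP (0.39), S100A4 (0.22), ALDH1L1 (0.13), MOBP (-0.11) and MAG (0.07).

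At the same step 22 of 23 muscle fibre genes rose and 1 fell (median 2.11), among them MYOZ1 by 5.12 ± 0.07 and CKM, the muscle creatine kinase, by 4.07 ± 0.07. The summed intensity of that list, on the log2 scale, was 17.68 to 17.85 over the pools of 35 dpc and 19.03 to 19.06 over those of 63 dpc. The summed intensity of the 10 neuronal and glial genes went from between 13.89 and 14.46 to between 5.97 and 6.99. Of all 6765 genes, 30.5% were higher at this step and 24.1% lower. Of the lists of other tissues, endothelium had 11 of 13 genes higher and 0 lower. Tendon and fibroblast had 6 higher and 1 lower of 13, cartilage and bone 3 and 2 of 13, epidermis and epithelium 3 and 1 of 9, myoblast regulators 3 and 3 of 9, erythroid genes 1 and 3 of 7, and liver and plasma proteins 0 and 0 of 15. The shares of higher genes in the cartilage and bone list (23.1%) and the epithelium list (33.3%) were near that of all genes. The part of any of these lists in the fall of the 10 genes was not tested. When arrays were scaled to these spiked controls instead, the median over all probe sets moved by -0.81 at this step, the calls went from 5340 higher and 5271 lower to 2096 and 15567, and all 10 genes, SYN1 included, were then lower.

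**Figure D5:**
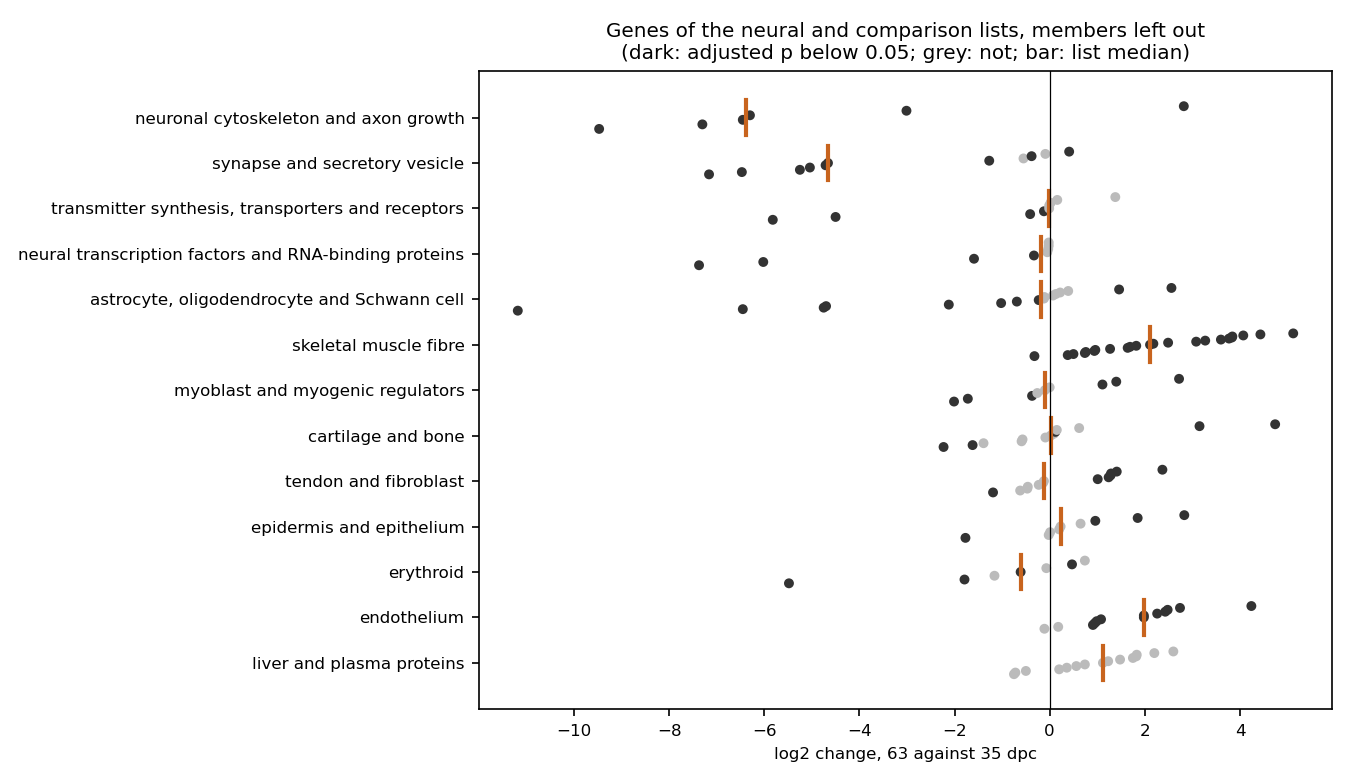
Log2 change from 35 to 63 dpc for the measured genes of 13 lists, the 10 described genes left out (1 point per gene, dark for an adjusted p below 0.05, grey for not, orange bar for the list median). The medians of the cytoskeleton and synapse lists lie to the left (-6.37 and -4.66), that of the muscle fibre list to the right (2.11). The transmitter and glial lists spread from far left to right of 0 (medians -0.01 and -0.17). The transcription factor list spreads from far left to just below 0 (median -0.19).

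From 63 to 91 dpc 5 of the 34 measured genes of the neuronal lists were lower (14.7%, against 13.7% of all genes) and 1 was higher (2.94%, against 12.9%). In the cytoskeleton list 4 of 6 were lower, with a median change of -1.41. From 91 dpc to adults 4 of the 34 were lower (11.8%, against 31.5% of all genes) and 7 higher (20.6%, against 35.4%). UCHL1 went from 12.70 at 35 dpc to 5.40 at 63 dpc, lay between 2.13 and 3.50 at 91 dpc and stood at 8.72 in adults, with a rise of 5.72 ± 0.31 in the last step (limma, adjusted p = 2.20e-11). SST rose in that step by 1.96 ± 0.58 (adjusted p = 0.00782), to 4.96. GAP43, at or below the ceiling in all 6 adult pools, was at least 1.677-fold lower than at 91 dpc (limma, adjusted p = 0.00167).

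SNAP25 was above the ceiling on all 6 arrays of 35 dpc and on none of the 18 later arrays. This pattern was met by 72 probe sets, 0.3% of those tested, and by 14 of the 6765 genes (0.207%). It records which arrays crossed the ceiling and not the size of the fall. LHX1, at least 3.785-fold lower at 63 dpc, met it, whereas RTN1, above the ceiling on 2 later arrays, did not. Of these 14, 4 were SNAP25, GAD1, OLIG1 and LHX1.

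Likeness of pattern was measured as the root mean square difference between the 8 group means of 2 probe sets, each centred on its own mean, over all named probe sets whose group means spanned at least 1 log2 unit. RTN1 and SNAP25 were each other's nearest, 0.09 log2 units apart. Nearest to NEFL were RTN1 (0.42), SNAP25 (0.45) and FABP7 (0.46), followed by both probe sets of STMN2 (0.54 and 0.70). These 3 genes were thus each among the 2 nearest of the others.

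MAP2 was closest to DIRAS3 (0.42), VSNL1 (0.56), ELAVL4 (0.60), SCG2 (0.61) and LAMP5 (0.62). GAD1 was closest to FEZ1 (0.10), HOXB7 (0.13), GRK4 (0.15), SYT1 (0.17) and CELF4 (0.18), and GAD2 to EPB41L1 (0.29), JAKMIP1 (0.35), FBXL16 (0.35), MPZL2 (0.38) and SLAIN1 (0.39). None of the other 9 genes was among the 5 nearest to either glutamate decarboxylase.

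OLIG1 was closest to CCDC181 and JAKMIP1 (both 0.21), AGTPBP1 (0.24), FSD1 (0.30) and KCNIP1 (0.31). For LHX1 and GFAP, whose changes are small, the neighbours included genes that are bright at all stages, such as RPS27A (0.16 from LHX1, at 10.17 at 35 dpc and 8.25 at 63 dpc) and TXNRD1 (0.25 from GFAP, at 9.17 and 7.72). SYN1 was closest to ISG15 (0.27), PDE4A (0.30), ABCC6 (0.31), DDIT3 (0.33) and ATG4D (0.38), none of which is on the neural lists. All 5 had their highest stage mean in adults, which follows from their choice by likeness to SYN1.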

How the data were processed

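Total RNA was labelled as biotinylated cRNA, per the labels' protocols. The authors deposited 1 table of log2 intensity values, per the file headers 1 column per sample. GCOS 1.1.1 is named, per the submitters' processing notes. How probes were summarised was not given in the sources used here. Base 2 is a reading of the range, 1.60 to 16.10, and equal sorted columns show quantile normalisation before deposit.

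Of 24123 probe sets, 124 controls were left out. A limma 3.58.1 model (R 4.3.3) with 1 mean per group was fitted to all 24 arrays (16 residual and 1.31 prior degrees of freedom). Tests were two-sided with Benjamini-Hochberg adjustment over 23999 probe sets, threshold 0.05. The fit was tested on simulated data. A fold is "at least" where 1 side lay at or below the ceiling, which then replaced it. Array number limits the precision.

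The 10 genes are all named, as are the 4 genes of each list with the largest 35 to 63 dpc change, the muscle checks, and the 5 nearest patterns. Any other gene was chosen after its values were seen. Members and lists were chosen with earlier results of these data known. Symbols come from the array annotation, and 0 changed on update by gene number. Pool letters were not taken to pair samples: 0 of 84 same-letter correlations of deviations exceeded 0.1, which cannot exclude shared animals or handling. Alternatives were scaling, a dim filter, a replicate block, array weights, a robust trend, fewer arrays, each pool left out, and other probe sets.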

Additional observations from a re-analysis of the deposited data

How the results depend on the processing

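The count of called genes among the 10 stayed within 1.5 times its value in each of the 13 comparisons with limma's robust trend, with only probe sets above the ceiling on at least 3 arrays, and with the pool letter as a replicate block (9 of 10 for 63 against 35 dpc, as without it); the replicate block changed no call of the 10 genes. Scaling to the hybridisation controls gave 4 called genes for adults against 91 dpc (2 as deposited, RTN1 and LHX1 added), 2 for Pi against DL at 35 dpc (GAD1 and SNAP25, higher in Pi) and 2 for the interaction of breed with the step from 35 to 63 dpc. Of all 23999 probe sets, 13961, 8423 (8259 of them higher in Pi) and 7065 were then called in these comparisons. The counts among the 10 genes are therefore not read as particular to them. This scaling shifted the array as a whole. It turned GAD1 in Pi against DL at 35 dpc to 0.48 (adjusted p = 0.0108) and its interaction to -0.58 (adjusted p = 0.0291). Array weights gave 2 for Pi against DL at 35 dpc and 3156 probe sets where 966 were called, and fitting only the arrays compared gave 1 for adults against 91 dpc. Leaving out each pool in turn gave 9 to 10 called genes for 63 against 35 dpc (9 to 10 in DL, 8 to 8 in Pi), 0 to 1 for 91 against 63 dpc, 1 to 3 for adults against 91 dpc, 0 to 2 for Pi against DL at 35 dpc, 0 to 1 over all stages (OLIG1 without Pi pool a of 35 dpc) and 0 to 1 for the interaction with the first step (OLIG1, 2.03, adjusted p = 1.83e-05, without the same pool). The remaining comparisons gave 0. The 3 other GFAP probe sets changed sign at 0.13, 0.06 and 0.03 from 35 to 63 dpc, and 2 of them within DL at 0.03 and 0.22. The further GAD2 probe set gave -0.05, which did not pass. That scaling also took the lower genes from 35 to 63 dpc from 4 to 8 in both the transmitter and the transcription factor lists, and no direction is read from these counts, since several of the genes lay at or below the ceiling at both stages. The cause of these differences was not tested. Probe sets near the ceiling limit LHX1, GFAP and fetal SYN1, and folds to the ceiling are lower bounds.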

Other observations

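MBP and MAP1B went up from 35 to 63 dpc where most genes of the neural lists went down. These 2 genes and S100B were chosen after their values were seen. MBP, a protein of myelin in Schwann cells and oligodendrocytes, averaged 3.24 ± 0.78 (SD, n = 6) at 35 dpc, 4.69 ± 1.34 at 63 dpc, 6.95 ± 0.29 at 91 dpc and 6.12 ± 1.76 in adults, where single pools went down to 2.71. MAP1B averaged 2.86 ± 0.56, 5.69 ± 0.57 and 4.86 ± 1.34 at the fetal stages and 3.46 in adults. S100B, a calcium-binding protein of glia that other tissues also make, averaged 8.23 ± 0.17 at 35 dpc and stayed above the ceiling in all 24 pools, at 6.79 ± 0.57 in adults.

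The other 10 genes above the ceiling on all 6 arrays of 35 dpc and on none of the 18 later ones were ELAVL4, SCG2, LAMP5, SYT1, CBLN2, C14H10orf35, KCNB2, FBXL16, FSD1 and ACSL6. Their lower bounds for the fall to 63 dpc ran from 144.7-fold for ELAVL4 and 124.3-fold for SCG2 to 2.324-fold for ACSL6. They were chosen by this pattern, so their falls are a description.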
